A study of Mus musculus with 24 samples.

Results

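The mammary glands of female BALB/c mice were compared 4 weeks after a single whole-body dose of 10 cGy X-radiation (low-dose ionizing radiation, LDIR) and 4 weeks after sham exposure. The series holds 24 arrays, and the 6 arrays whose labels give BALB/c, 4 weeks and either 10 cGy X-ray or sham were taken, 3 (A, B and C) in each group. The other arrays hold BALB/c glands at 2 and 8 weeks and SPRET/EiJ glands at 4 weeks, each with 3 LDIR and 3 sham arrays. All mice of the 6 arrays taken were of the inbred strain BALB/c and were 8 to 9 weeks old when exposed. The labels name no transgene and no other agent. RNA came from whole frozen glands, in which epithelium lies within fat together with vessels, nerves and immune cells. Each RNA was hybridised in 1 colour to its own Agilent array, which carries 16251 lncRNA probes and 39430 coding RNA probes. Sham arrays A and B lay on slide 1, while sham C and all 3 LDIR arrays lay on slide 2. The question asked was which lncRNAs and coding RNAs differ between LDIR and sham glands at this time.

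Ionizing radiation breaks DNA, which activates p53 and repair within hours, while later tissue responses can involve cytokines and immune cells. Type I interferons are secreted proteins that act through a receptor and transcription factors that include STAT2 and IRF9. Complexes of these factors bind promoter elements built of repeated GAAA blocks and switch on antiviral genes. Macrophages are resident phagocytes of the gland and take part in duct growth and the clearance of dead cells. Brown and beige adipocytes burn fatty acids in mitochondria uncoupled by Ucp1, and white adipocytes store fat. Long noncoding RNAs (lncRNAs) are transcripts with no known protein product. On this array most of them are named only by the genome interval and strand from which they are read.

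On the 6 arrays, 66.3% to 72.4% of probes were well above background, and pairs of arrays correlated at 0.978 to 0.991 over 35190 probes. Sham C correlated with LDIR A, B and C at 0.9897, 0.9894 and 0.988, and with sham A and B at 0.9874 and 0.9848. Sham C was thus nearer to the LDIR arrays of its slide than to the other sham arrays. Sham A and B, which share slide 1, correlated at 0.9846. The tissue label was borne out by the mammary and fat genes. All 16 luminal epithelial genes, all 12 basal genes and all 16 white adipocyte genes of the lists used were above background on all 6 arrays. Sham A stood apart by skeletal muscle RNA. The summed linear level of 20 muscle genes, relative to each array's 75th percentile, was 58.6 in sham A and 10.98 to 17.86 on the other 5 arrays. Erythrocyte, mast cell and eosinophil, dendritic cell and glucocorticoid-induced genes had no member past the thresholds given below.

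A level is given here as the log2 intensity relative to the 75th percentile of the same array, so a negative level is dimmer than that percentile, and levels of different probes are not compared. A probe was called higher or lower where limma's moderated test gave an unadjusted p under 0.05 and the change was more than 1.5-fold. The words rose and fell are used only for such calls. After Benjamini-Hochberg adjustment over all probes no probe had a p under 0.05. The smallest adjusted p was 0.331, and at an unadjusted p under 0.05 there were 1132 lncRNA and 2260 coding RNA probes. With 3 arrays against 3, an exact two-sided permutation test of a single probe gives no p below 0.1. Every call below is thus a call before adjustment.

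The sequences of 7 lncRNA probes are shown as examples of the 12 lncRNAs named for their changes, and for the locus among these with the most called probes. They were chosen after the values were seen, and some of the 12 that are not shown changed more. Each is the 60-base probe as printed in the deposited array files, 5′ to 3′ in lower case, with mm9 coordinates. The first group rose after LDIR.
lncRNA chr1:85300475-85331475, reverse strand, probe chr1:85301110-85301169: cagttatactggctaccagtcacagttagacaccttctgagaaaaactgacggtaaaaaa
lncRNA chr12:111079867-111080561, reverse strand, probe chr12:111079941-111080000: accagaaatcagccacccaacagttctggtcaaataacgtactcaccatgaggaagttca
lncRNA chr4:123572090-123581365, forward strand, probe chr4:123581029-123581088: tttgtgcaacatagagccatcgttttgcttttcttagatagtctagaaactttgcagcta
The second group fell, and its last 3 probes lie in 1 locus.
lncRNA chr8:49911596-49912196, reverse strand, probe chr8:49911837-49911896: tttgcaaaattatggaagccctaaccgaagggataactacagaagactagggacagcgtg
lncRNA chr6:126766225-126771309, reverse strand, probe chr6:126769738-126769797: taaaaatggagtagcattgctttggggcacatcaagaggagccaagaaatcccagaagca
the same locus, probe chr6:126769603-126769662: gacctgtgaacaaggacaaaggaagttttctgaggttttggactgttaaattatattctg
the same locus, probe chr6:126769543-126769602: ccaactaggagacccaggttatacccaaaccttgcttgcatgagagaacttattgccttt

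Among lncRNAs, 696 probes rose (4.28% of 16251) and 230 fell (1.42%). Over all probes the log2 change had a median of 0.02. The probes that rose were often dim. Among the 7880 lncRNA probes well above background on all 6 arrays, 209 rose and 89 fell, and 251 of the called probes were above background on no array. The slide of the LDIR glands also held sham C. Against this array alone, 376 of the 696 that rose and 187 of the 230 that fell kept more than 1.5-fold. None turned, but sham C is 1 of the 3 sham arrays behind each call. The thresholds thus left little room for a turn, and its absence is no separate support. Sham C was the sham array nearest to the LDIR arrays for 444 of the 696. With slide as a fixed block, which leaves LDIR against sham C, the split was 269 higher and 673 lower. After quantile normalization it was 423 and 380, and after normexp background correction 28 and 30. Under these 3 settings more lncRNA probes fell than rose, or the numbers were near each other.

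The lncRNA at chr6:126766225-126771309 on the reverse strand was the named lncRNA with the most called probes: 3 of its 5 fell. At its first probe shown above, the sham levels were -4.26, -3.99 and -4.72 for A, B and C, and the LDIR levels -4.74, -6.37 and -7.21, of which 1 was above background. LDIR A lay close to sham C, and LDIR B and C lay far below all sham arrays. The change was -1.78 (standard error 0.61, limma adjusted p = 0.783). The probe at chr6:126769543-126769602 was above background on all 6 arrays. It read -2.94, -3.02 and -2.79 in sham and -3.66, -4.75 and -4.29 after LDIR, a change of -1.32 with groups that do not overlap (standard error 0.29, adjusted p = 0.685). The 3 probes for the opposite strand of this locus changed by -0.05, 0.29 and 0.39 and were not called. The nearest coding gene on the array, Ndufa9, which encodes a subunit of respiratory complex I, lay 2199 bases away and changed by -0.26, which was not called.

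The lncRNA at chr8:49911596-49912196 fell, and its probe was above background on all 3 sham arrays and 1 LDIR array. Its sham levels were -3.80, -4.54 and -4.10, and its LDIR levels -5.59, -6.44 and -5.95. The groups did not overlap, as the rule for naming lncRNAs required. The change was -1.85 (standard error 0.29, adjusted p = 0.586 from limma). Its remaining 2 probes changed by -0.52 and -0.11 and were not called. In BALB/c at 8 weeks the same probe changed by -2.20, and at 2 weeks by -0.23.

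Among lncRNAs that rose, the one at chr12:111079867-111080561 was not well above background on any sham array. Its levels were -6.82, -5.89 and -5.88 in sham and -4.77, -4.22 and -4.58 after LDIR. It was at least 2.54-fold higher after LDIR (adjusted p = 0.641 from limma). Here and below, at least means that a dim array entered with the lowest signal that any probe well above background had on it, or with its measured signal where that was higher. The lncRNA at chr1:85300475-85331475, with sham levels of -6.04, -7.62 and -5.86 and LDIR levels of -3.47, -5.02 and -4.94, was at least 2.42-fold higher. The one at chr4:123572090-123581365 was at least 1.38-fold higher. No other probe of these 3 lncRNAs on the same strand was called. Over all called lncRNAs with further probes on the array, 22.4% of those that rose and 23.3% of those that fell had another probe called in the same direction. As 4.28% of all lncRNA probes rose and 1.42% fell, these near shares do not mean equal support. Of the further probes, 69.5% and 54.9% changed in the same direction, beside 60.3% and 39.7% of all lncRNA probes.

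Among coding RNA probes, 1179 rose (2.99% of 39429 tested) and 559 fell (1.42%). Taken as 22328 genes, each by its brightest probe, 643 rose (2.88%) and 330 fell (1.48%). The LDIR and sham levels did not overlap for 12.3% of all probes. Among called probes they did not overlap for 1467 of 1738 coding and 766 of 926 lncRNA probes. Separate groups thus add little to a call, here and below. Against sham C alone, 721 of the 1179 coding probes that rose and 421 of the 559 that fell kept more than 1.5-fold. None turned, for which the calls again left little room. With slide as a fixed block 1.3% of genes rose and 2.56% fell. After quantile normalization 811 coding probes rose and 800 fell, and after normexp 280 rose and 275 fell.

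**Figure D1:**
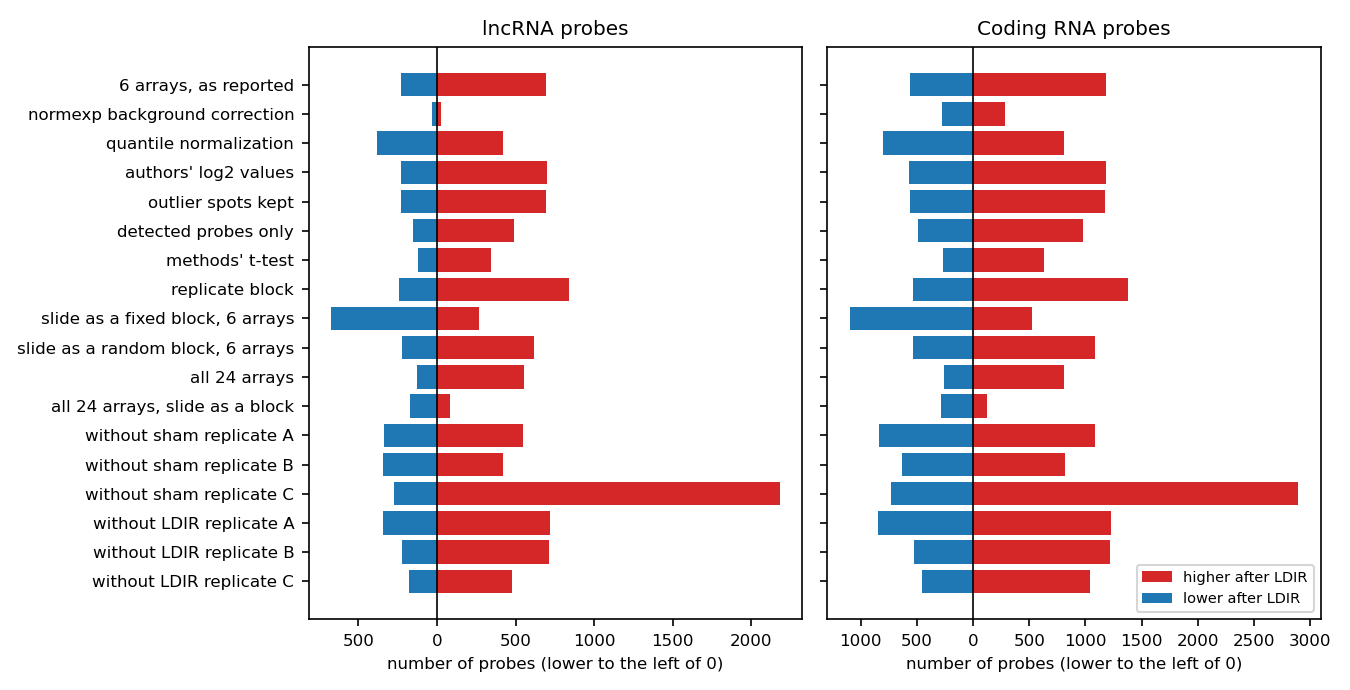
Number of lncRNA probes (left) and coding RNA probes (right) past both thresholds under each processing setting, with probes higher after LDIR to the right of 0 and probes lower to the left. The reported setting gives 696 and 230 lncRNA probes and 1179 and 559 coding RNA probes. The bars with slide as a fixed block and on all 24 arrays with slide as a block are longer to the left, and those without sham replicate C are the longest to the right.

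The coding genes named for the largest changes were picked among called genes whose groups do not overlap, so their separation is part of the choice. Those that rose most included several of the immune system. Ifi214, a member of the interferon-inducible p200 family, had sham levels of -3.97, -4.76 and -5.34 and LDIR levels of -2.21, -3.30 and -2.18. All 3 LDIR arrays lay above all sham arrays, and the change was 2.13 (standard error 0.45, limma adjusted p = 0.685). Slfn4 and Slfn1, schlafen genes of myeloid cells and lymphocytes, rose by 2.11 and, for Slfn1, at least 2.56-fold, since no sham array measured it above background. LDIR B was the lowest LDIR array for both: Slfn4 read -1.75, -4.74 and -2.39, against -4.80, -4.88 and -5.53 in sham.

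Ccl8 encodes a chemokine that attracts monocytes. Its sham levels were 2.61, 1.94 and 2.33 and its LDIR levels 4.80, 3.38 and 4.17, with a change of 1.82 (standard error 0.39, limma adjusted p = 0.685). It was well above background on all 6 arrays. Ccr1l1, a receptor-like gene beside Ccr1, rose by 1.84. Gm7609, an unnamed gene model on chromosome 1, rose by 1.89, and its probe lay 91742 bases from that of the lncRNA at chr1:85300475-85331475. Outside the immune system, Fez1 (axon growth), Cdk5r2 (an activator of Cdk5), Cngb3 (a cone photoreceptor channel subunit), Vgf (a neuropeptide precursor) and Ctsr (a placental cathepsin) were among the 12 that rose most. Cdk5r2, Cngb3 and Vgf were above background on no sham array and were at least 1.96-fold, 1.44-fold and 1.87-fold higher. After normexp their log2 changes were 0.14, 0.11 and 0.14.

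The genes that fell most included an epithelial plaque gene and liver-type genes. Upk3a, a uroplakin of the urothelial plaque, read 2.33, 2.17 and 2.95 in sham and 0.78, -0.22 and -3.69 after LDIR. The LDIR arrays differed widely among themselves, all below sham, and the change was -3.53 (standard error 1.09, limma adjusted p = 0.782). The remaining 4 urothelial genes listed changed by -0.81 to 0.72 and were not called. S100g, a calcium-binding protein regulated by vitamin D and sex hormones, read -4.21, -1.07 and -0.96 in sham and -4.60, -5.37 and -5.74 after LDIR, so sham A lay with the LDIR arrays. A further S100g probe was above background on 2 sham arrays and no LDIR array, and was at least 7.52-fold lower after LDIR. Both S100g probes also fell in BALB/c at 2 weeks, with changes of -3.17 and -2.51. The first of them changed by 0.17 at 8 weeks and by 0.16 in SPRET/EiJ, which were not called.

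Fgb and Fgg encode the beta and gamma chains of fibrinogen, which are made mainly by the liver as acute phase proteins. Fgb read 0.78, -1.75 and -0.01 in sham and -1.84, -3.75 and -4.20 after LDIR, a change of -2.94 (standard error 0.83, limma adjusted p = 0.749). Fgg read -1.71, -0.90 and 0.33 in sham and -3.38, -2.89 and -4.41 after LDIR, a change of -2.80 (standard error 0.60, adjusted p = 0.685). Both genes lay below every sham array on all 3 LDIR arrays, as the choice of the largest changes required. Fga, the alpha chain, read -3.11, -5.13 and -2.67 in sham and -2.91, -3.33 and -2.84 after LDIR, and its change of 0.61 was not called (adjusted p = 0.810 from limma). Of the 15 acute phase and coagulation genes, 2 rose (Serpina1a by 1.07 and Azgp1 by 0.60) and 3 fell (Fgb, Fgg and Hp, the last, haptoglobin, by 0.70).

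The other large falls were Snorc, a cartilage proteoglycan gene, by 2.62, Slc25a20, the mitochondrial carnitine carrier, by 1.59, and Elovl3 and Cidea, described with the adipocyte genes below. Smcp (sperm mitochondrial capsule), Vmn1r197 (a pheromone receptor), Tmem151b and 0610005C13Rik were above background on no LDIR array. They were at least 2.69-fold, 2.38-fold, 2.45-fold and 2.13-fold lower. After normexp their log2 changes were -0.47, -0.37, -0.36 and -0.29. Tmem151b also fell in BALB/c at 2 weeks, with a change of -1.99.

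**Figure D2:**
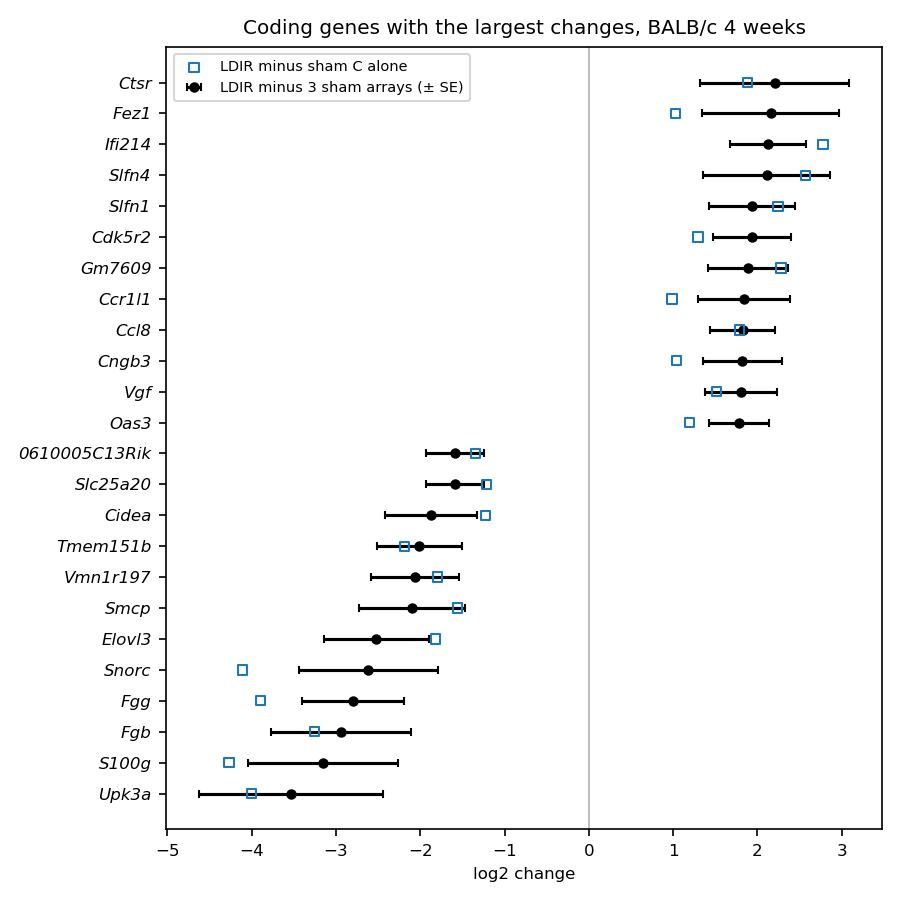
The 12 coding genes that rose most and the 12 that fell most, as the log2 change of LDIR against all 3 sham arrays (points, bars are ± 1 standard error, n = 3 per group) and against sham C alone (squares). Upk3a fell most, by 3.53, and the squares lie on the same side of 0 as their points because the genes were chosen to change by more than 1.5-fold against sham C as well.

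Type I interferon-stimulated genes were higher after LDIR. Of the 26 listed genes on the array, 15 rose, beside 2.88% of all genes, and none fell. Their median log2 change was 0.86, against -0.01 for all genes. The summed linear level of the list was 54.8 to 66.5 on the sham arrays and 86.3 to 117 on the LDIR arrays. The list holds sensors of viral RNA and DNA, enzymes that act on viral RNA, and regulators of the pathway, and 25 of its 26 genes were above background on all 6 arrays.

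Oas3 and Oas1a belong to the enzymes that sense double-stranded RNA and activate RNase L. Oas3, whose change was the largest of the list, read -5.11, -5.63 and -4.49 in sham and -3.28, -3.74 and -2.87 after LDIR, a change of 1.78 (standard error 0.35, limma adjusted p = 0.662). Oas1a read 2.38, 2.09 and 1.94 in sham and 3.68, 2.87 and 3.55 after LDIR, a change of 1.23 (standard error 0.26, adjusted p = 0.685). For both genes the lowest LDIR array was B, and it still lay above the highest sham array. The choice of the largest changes required this of Oas3. Oas1a was named as a called gene, and most called probes have separate groups, so its separation is no separate support. Oasl2, an OAS-like protein, read 1.86, 1.03 and 1.32 in sham and 3.04, 2.42 and 2.56 after LDIR, a change of 1.27 (standard error 0.28, adjusted p = 0.685). Ifi44, an interferon-induced protein, read -0.07, 0.17 and -0.73 in sham and 1.28, 0.51 and 1.15 after LDIR, a change of 1.19.

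The further members that rose, named after their values were seen, were Zbp1, Usp18, Ifit3, Oasl1, Irf7, Ifit2, Ifit1, Rtp4, Oas2, Mx1 and Cmpk2, by 0.61 to 1.11. Usp18, a protease that removes ISG15 and dampens receptor signalling, read 0.72, 0.28 and 0.39 in sham and 1.63, 1.33 and 1.72 after LDIR. Irf7, the transcription factor that amplifies interferon production, read 0.03, -0.64 and -0.98 in sham and 0.52, 0.25 and 0.54 after LDIR. Stat2 and Irf9, factors that carry the receptor signal, changed by 0.37 and 0.28 and were not called. Isg15, the ubiquitin-like modifier, read 2.69, 2.80 and 2.24 in sham and 3.68, 2.55 and 3.84 after LDIR, so LDIR B overlapped the sham arrays (change 0.78, limma adjusted p = 0.783). Bst2, which tethers budding virus, changed by -0.28. Oas1a, Ifit3, Ifi214 and the schlafen genes belong to families with close copies, and their probes may read more than 1 member.

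**Figure D3:**
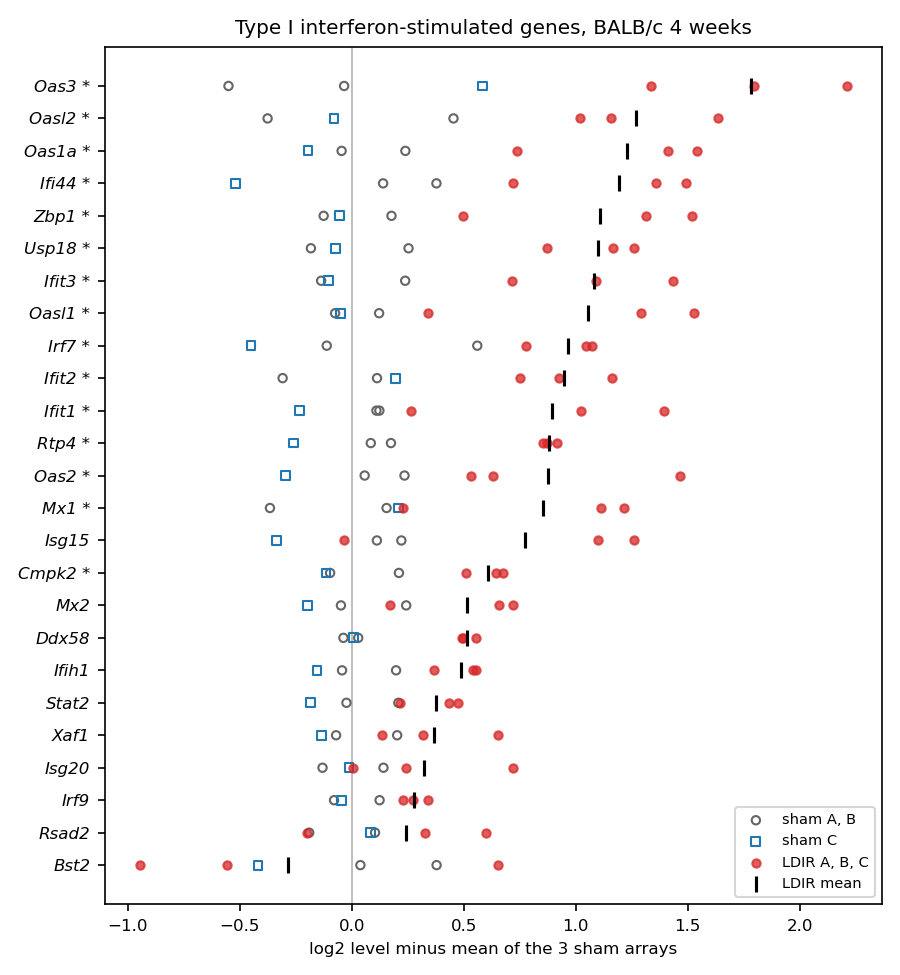
Type I interferon-stimulated genes in BALB/c glands at 4 weeks, 1 gene per row, as the log2 level of each array minus the mean of the 3 sham arrays. Open symbols are sham arrays (squares are sham C), filled points LDIR arrays, black ticks LDIR means, and stars mark the 15 genes that rose. Of the 26 listed genes 25 are drawn.

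Against sham C alone, 26 of 26 interferon-stimulated genes were higher and 18 were higher by more than 1.5-fold, beside 4.85% of all genes, with a median of 0.93. With slide as a fixed block 13 rose, beside 1.3% of all genes. Both comparisons rest on sham C as the only sham array set against LDIR. Its summed level for this list was the lowest in sham, at 54.8, beside 66.5 in sham A and 66.2 in sham B. The median of all genes against sham C was -0.03. Without sham A, the array with muscle RNA, 13 rose. Leaving out any 1 of the 6 arrays gave 11 to 17.

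Promoters of 4 of the genes that rose are shown because they hold the GAAANNGAAA core of the interferon-stimulated response element, and they were chosen after the values were seen. Each runs from 250 bases before to 50 bases after the transcription start in RefSeq's annotation of GRCm38.p6, 5′ to 3′ on the gene's strand, with the motif on either strand in capitals. Read on the other strand the core is TTTCNNTTTC, and cores may overlap.
Oas3, chr5:120777610-120777909, minus strand: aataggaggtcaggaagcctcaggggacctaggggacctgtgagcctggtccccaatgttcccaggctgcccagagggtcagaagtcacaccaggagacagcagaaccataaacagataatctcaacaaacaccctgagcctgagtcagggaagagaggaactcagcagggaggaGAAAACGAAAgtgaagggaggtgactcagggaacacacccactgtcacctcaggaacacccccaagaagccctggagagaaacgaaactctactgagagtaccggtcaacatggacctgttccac
Oas1a, chr5:120907476-120907775, minus strand: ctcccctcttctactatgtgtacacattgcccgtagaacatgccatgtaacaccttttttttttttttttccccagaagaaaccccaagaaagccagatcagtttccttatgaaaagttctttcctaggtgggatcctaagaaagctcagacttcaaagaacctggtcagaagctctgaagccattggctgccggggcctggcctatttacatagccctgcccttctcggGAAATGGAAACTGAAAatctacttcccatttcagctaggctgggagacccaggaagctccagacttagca
Ifit3, chr19:34583279-34583578, plus strand: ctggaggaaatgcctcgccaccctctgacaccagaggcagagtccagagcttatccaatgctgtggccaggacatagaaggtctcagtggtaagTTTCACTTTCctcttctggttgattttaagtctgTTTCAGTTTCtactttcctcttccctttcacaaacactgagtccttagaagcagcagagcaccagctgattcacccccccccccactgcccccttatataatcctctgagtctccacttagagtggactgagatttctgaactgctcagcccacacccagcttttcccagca
Ifit1, chr19:34640639-34640938, plus strand: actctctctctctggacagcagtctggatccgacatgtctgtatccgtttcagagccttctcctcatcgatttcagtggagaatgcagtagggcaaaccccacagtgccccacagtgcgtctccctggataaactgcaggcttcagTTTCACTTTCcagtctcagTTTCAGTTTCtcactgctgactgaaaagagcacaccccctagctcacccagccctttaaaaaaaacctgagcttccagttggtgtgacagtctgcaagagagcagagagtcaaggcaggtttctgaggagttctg
Of the 26 listed genes, 19 had a promoter in the table, and 10 of these 19 (52.6%) held the core, while 1131 of all 32851 promoters did (3.44%). Among the members that rose, 4 of 10 with a promoter held it, and among those not called 6 of 9. No promoter of 13 macrophage genes or of 13 brown and beige adipocyte genes held it in this window. A match is a run of letters and says nothing of binding.

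Macrophage genes were also higher. Of 18 listed, 10 rose, beside 2.88% of all genes, and none fell, with a median change of 0.79. Their summed linear level was 79.5 to 112 on the sham arrays and 125 to 172 on the LDIR arrays. In whole tissue, more cells of a type cannot be told apart from more RNA per cell, and the same holds for fewer cells and less RNA. All 18 genes were above background on all 6 arrays.

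C1qa encodes a chain of complement C1q, made by tissue macrophages. It read 2.64, 1.43 and 2.06 in sham and 3.57, 2.77 and 2.90 after LDIR, a change of 1.04 (standard error 0.36, limma adjusted p = 0.783). Sham B was the lowest array, and sham A and LDIR B were close. The Fc receptors for IgG, Fcgr3 and Fcgr1, rose by 0.94 and 0.93. Fcgr1 read -2.12, -2.49 and -2.43 in sham and -1.43, -1.75 and -1.05 after LDIR, with separate groups. Clec10a, a lectin of alternatively activated macrophages, rose by 0.93, and LDIR C (4.17) lay just above sham C (4.04).

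The remaining members that rose were C1qc, C1qb, Cd68, Mrc1, Adgre1 and Msr1, by 0.62 to 0.91. Lyz2 (lysozyme) and Cd163 (the haemoglobin-haptoglobin receptor) changed by 1.24 and 1.25 and were not called, with sham B far below the other sham arrays. Cd14, the co-receptor for endotoxin, changed by -0.50. Without sham B or without LDIR A 4 macrophage genes rose, and without sham A 12 rose and 1 fell. Against sham C alone 11 were higher by more than 1.5-fold, beside 4.85% of all genes, with a median of 0.63. With slide as a fixed block the change is the same one against sham C, and 1 gene rose, beside 1.3% of all genes, while with slide as a random block 10 rose, with a median of 0.79. The correlation within slides estimated for the random block was 0.037. That fit thus stayed close to the one without a block and allowed little for slide. Marker genes of T lymphocytes were not called (0 of 20 in limma, also 0 at an unadjusted p under 0.05 alone), and their summed level was 14.5 to 23.5 in sham and 18.8 to 23.2 after LDIR. MHC class II and interferon-gamma genes were not called either (0 of 15, 1 at an unadjusted p under 0.05 alone). Of these, 12 of 15 had a change above 0, with a median of 0.37, and their summed level was 127 to 165 in sham and 170.1 to 213 after LDIR, without overlap.

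The counts of this and the following marker lists stand beside 2.88% of all genes that rose and 1.48% that fell. Of 12 Fc receptor and adaptor genes, 11 were above 0 with a median change of 0.64, and their summed level was 13.8 to 17.6 in sham and 21.8 to 26.7 after LDIR. Of these genes 4 rose, namely Fcgr3, Fcgr1, Fcer1g and Tyrobp, and the first pair also stand in the macrophage list. Fcer1g, the shared gamma chain, read 2.54, 1.61 and 2.11 in sham and 3.13, 2.90 and 3.01 after LDIR. Tyrobp, the DAP12 adaptor, rose by 0.64. Of 34 chemokines, 5 rose, namely Ccl8, Ccl6 by 1.03, Pf4 (platelet factor 4) by 0.94, Ccl9 by 0.85 and Ccl12 by 0.83. Ccl17, a ligand of Ccr4, fell by 0.95. The chemokine list had a median change of 0.00.

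Of 18 chemokine receptors, 3 rose. Ccr1, a receptor on monocytes and neutrophils, had the smallest adjusted p of the named genes. It read -7.16, -7.51 and -7.58 in sham, where no array was above background, and -4.68, -5.54 and -4.90 after LDIR, where 2 arrays were. It was at least 1.77-fold higher (limma adjusted p = 0.333). Ccr4 rose by 0.99, and Cxcr1, above background on no sham array and 2 LDIR arrays, was at least 1.33-fold higher. Of 30 interleukins 5 rose, with Il10 by 0.82, Il18 by 0.80, Il4 by 0.74, Il19 by 0.68 and Il22 by 0.60. Only 16 of the 30 were above background on all 6 arrays, and 7 were on none. Their median change against sham C alone was 0.00. After normexp 1 interleukin and 0 chemokine receptors rose.

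Smaller marker lists gave 1 or 2 calls each. Fcrla and Pou2af1 rose among 17 B cell and plasma cell genes, Ly6g (1.07) among 12 neutrophil genes and Cd34 (0.74) among 6 lymph node stroma genes. Tbx21 fell by 0.71 among 10 genes of NK and cytotoxic cells.

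Genes of brown and beige adipocytes were lower. Of 16 listed, 7 fell, beside 1.48% of all genes, and none rose, with a median change of -0.78. Their summed linear level was 84.4 to 154 on the sham arrays and 38.4 to 87.7 on the LDIR arrays, so sham C (84.4) and LDIR C (87.7) overlapped. Elovl3, a fatty acid elongase of brown fat, read -3.35, -1.06 and -3.26 in sham and -4.83, -5.41 and -4.98 after LDIR, a change of -2.52 (standard error 0.62, limma adjusted p = 0.699). Cidea, a lipid droplet protein, read 5.004, 6.15 and 4.61 in sham and 2.46, 3.56 and 4.13 after LDIR, a change of -1.87 (standard error 0.55, adjusted p = 0.761). Both genes are among the largest falls, which were picked for separate groups, and sham B was highest for each.

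Slc27a2, which imports and activates fatty acids, fell by 1.34 and Kcnk3, a potassium channel, by 1.00. Cox7a1, Acot11 and Cpt1b, which serve respiration and fatty acid use, fell by 0.96, 0.90 and 0.86. Ucp1, the uncoupling protein that defines these cells, read 1.64, 0.08 and -0.36 in sham and -2.57, -0.77 and -0.29 after LDIR. Its groups overlapped at LDIR C, and its change of -1.67 was not called (limma adjusted p = 0.783). Ppargc1a, a coactivator of mitochondrial genes, changed by -0.60 and was not called.

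The adipocyte result depended on single arrays and on the slide. Without sham A 4 genes fell, without sham B 3, without LDIR A 3 and without LDIR C 11. Against sham C alone 8 of the 16 were lower by more than 1.5-fold, beside 8.07% of all genes, and with slide as a fixed block none fell, beside 2.56%. Among 16 white adipocyte genes, 1 fell (Lipe, hormone-sensitive lipase, by 0.62), and their summed level was 4222 to 5147 in sham and 3174 to 4760.2 after LDIR. Of 30 genes of lipid and sterol synthesis 1 fell (Insig1, by 0.72).

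**Figure D4:**
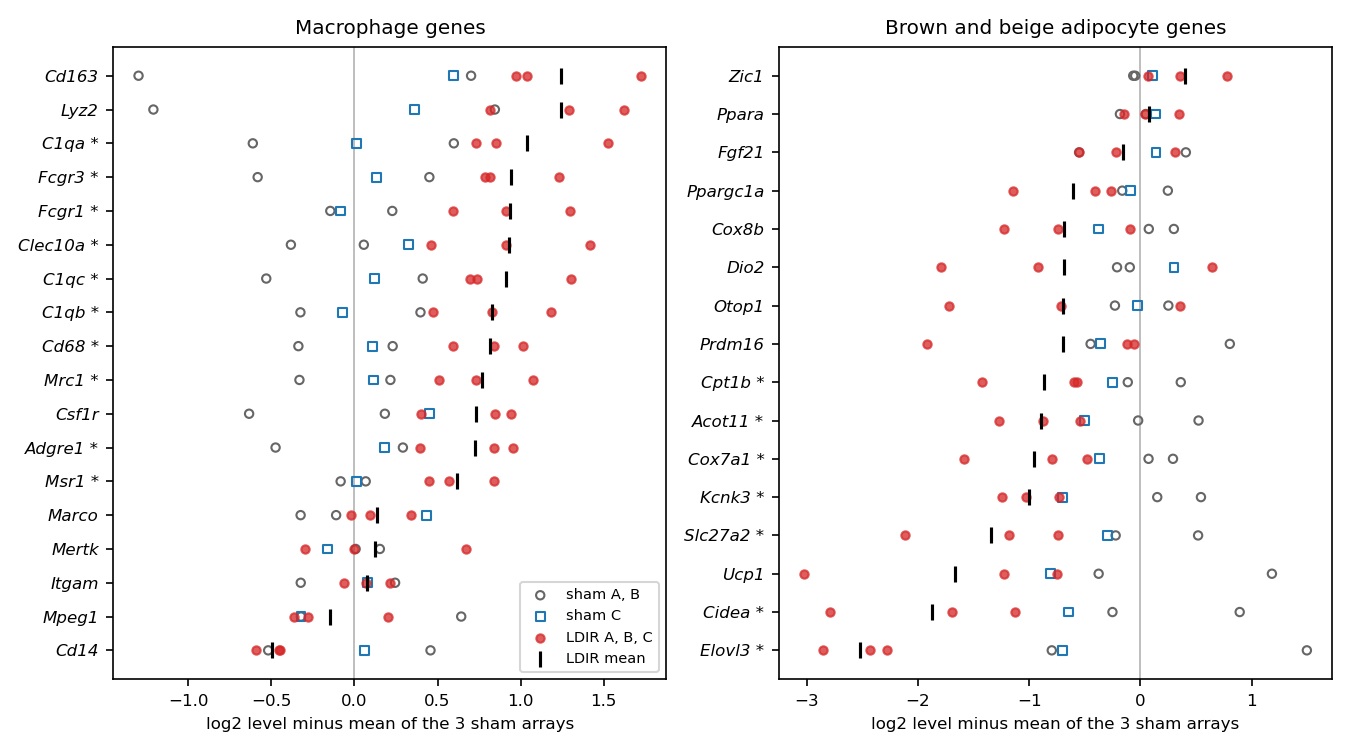
Macrophage genes (left) and brown and beige adipocyte genes (right) in BALB/c glands at 4 weeks, as the log2 level of each array minus the mean of the 3 sham arrays. Open symbols are sham arrays (squares are sham C), filled points LDIR arrays and black ticks LDIR means, and stars mark the 10 of 18 genes that rose and the 7 of 16 that fell.

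Most calls among the epithelial markers were of basal genes. Basal and myoepithelial genes had 3 of 12 lower (beside 1.48% of all genes): Lgr5, a receptor of stem-like cells, by 1.02, and the keratins Krt14 by 0.92 and Krt5 by 0.73. Krt14 read 0.39, 1.39 and 1.25 in sham and 0.23, -0.18 and 0.20 after LDIR, with sham A close to the LDIR arrays. Among 16 luminal genes, 1 fell (Elf3, by 0.79). Of 17 genes of the hormone response 3 fell, namely S100g, Cited1 (a coregulator of the estrogen receptor, by 1.38) and Cish (a STAT5 target, by 1.11). Cited1 read 3.57, 5.27 and 5.44 in sham and 3.68, 3.69 and 2.78 after LDIR, so sham A again lay with the LDIR arrays. The estrous stage of these mice is not given in the labels.

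Of 14 milk protein genes 3 rose (beside 2.88%), and all 3 were dim. Csn2, beta-casein, read -7.80, -7.65 and -7.52 in sham and -3.62, -7.74 and -3.18 after LDIR, above background on LDIR A and C only, and at least 2.03-fold higher. LDIR B lay within the sham range for this gene. Csn1s1, another casein, rose by 1.65 and Lao1, an amino acid oxidase of milk, by 1.88. Wap, the whey acidic protein, reached -0.69 in LDIR A and lay between -6.35 and -5.16 on the other 5 arrays.

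Few genes known for the early response to radiation were called. None of 25 p53 targets and none of 28 proliferation genes passed both thresholds in limma (1 of each list had an unadjusted p under 0.05), and 1 of 25 DNA break and repair genes fell (H2ax, the histone marked at breaks, by 0.64). The p53 target genes had a median change of -0.17. Phlda3, a p53 target that restrains Akt, changed by -0.23 (adjusted p = 0.828 from limma). Among 20 immediate early genes Jun fell by 0.85, among 18 clock genes Bhlhe40 fell by 0.75, and among 15 TGF-beta genes Skil fell by 0.60. No antioxidant gene of 18 was called, and none had an unadjusted p under 0.05.

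The fibroblast and endothelial lists gave few calls. None of 24 fibroblast and collagen genes was called (2 had an unadjusted p under 0.05), and Dcn (decorin) changed by 0.55. Among 16 endothelial genes Cldn5, a tight junction claudin, fell by 0.99, from 3.03, 3.48 and 3.00 to 1.79, 2.42 and 2.31. Of 10 Schwann cell and nerve genes 3 rose (beside 2.88% of all genes), among them S100b by 0.80 and Ncam1 by 0.70. The groups of Cldn5 were separate. Of 16 exocrine pancreas and salivary gland genes 4 rose, among them Cpa1, Pdx1 and Ptf1a at low levels. Of these, Cpa1 and Pdx1 were above background on no sham array and were at least 2.09-fold and 1.86-fold higher. Myh2 rose among 20 muscle genes, and Lce3a rose among 18 genes of cornified epidermis and hair, where Dsc1 was also called but was above background on no array.

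Of 49 genes that the study listed under its predicted regulators for this time, 22 rose and 9 fell. That list was chosen on these samples, so its count is not independent evidence. Of the 14 regulators themselves 1 rose (Ptf1a, above background on no array) and none fell, and of 15 known nuclear and host lncRNAs, such as Neat1 (0.22) and Gas5 (0.03), none was called.

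The same genes were then read in the other LDIR comparisons, each on its own 6 arrays. Interferon-stimulated genes had median changes of 0.12 at 2 weeks, 0.03 at 8 weeks and 0.33 in SPRET/EiJ at 4 weeks, with none called in any of them. In the same order, 20, 13 and 22 of the 26 had changes above 0, beside 44.6%, 38.3% and 48.0% of all genes. The difference between the BALB/c changes at 4 and 2 weeks was called higher at 4 weeks for 4 of 26 genes, beside 0.761% of all genes. These were Ifit3, Oas1a, Oas2 and Oasl2, and the same 4 were called against 8 weeks (beside 4.14%), by 1.19 to 1.44. Against SPRET/EiJ 1 was called, Oasl2 (beside 1.73%). Each of these differences contains the same 4-week BALB/c change, so a gene called in several of them gains no separate support. Oasl2 changed by 1.27 at 4 weeks, 0.20 at 2 weeks, -0.09 at 8 weeks and -0.34 in SPRET/EiJ. Ifi44 changed by 1.58 in SPRET/EiJ (standard error 0.97), and its difference from BALB/c was not called.

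Macrophage genes had medians of 0.07 at 2 weeks, -0.24 at 8 weeks and -0.04 in SPRET/EiJ. The difference from 8 weeks was called for 8 of 18 (beside 4.14% of all genes), from 2 weeks for 1, Clec10a (beside 0.761%), and from SPRET/EiJ for 3, C1qa, C1qc and Clec10a (beside 1.73%). For C1qa the difference from 8 weeks was 1.47 (standard error 0.53, limma adjusted p = 0.7495). Slide 3 held 2 of the LDIR arrays at 8 weeks (B and C), while slide 2 held LDIR A and all sham arrays of that time, so the 8-week change is partly confounded with slide too. With slide as a block, 952 probes in place of 3453 differed between the changes at 4 and 8 weeks. Over all probes the median change at 8 weeks was -0.14, and the median difference between 4 and 8 weeks was 0.21. Brown and beige adipocyte genes had medians of 0.14, -0.13 and -0.58, and 1 of 16 (Slc27a2) differed in the lower direction from 2 weeks (beside 0.515% of all genes), none from 8 weeks (beside 0.672%) and 1 (again Slc27a2) from SPRET/EiJ (beside 1.02%). Fgb and Fgg rose by 2.39 and 1.86 at 8 weeks, and their differences of -5.33 and -4.66 were called before adjustment (adjusted p = 0.731 and 0.715 from limma).

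**Figure D5:**
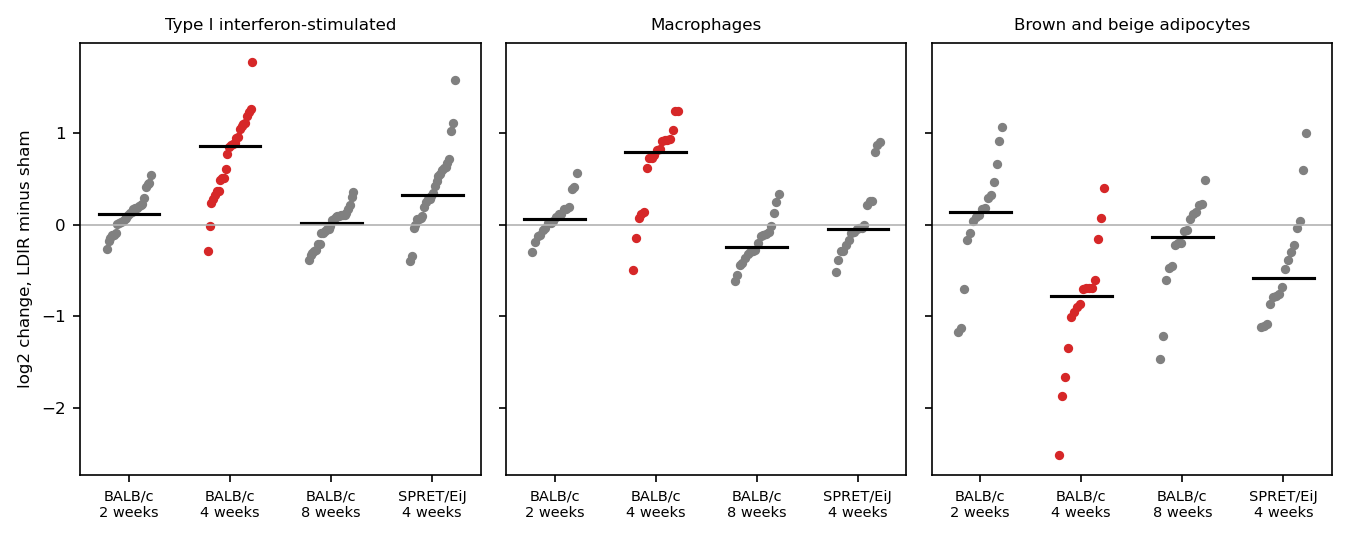
Log2 change of LDIR against sham for each gene of 3 lists in the 4 LDIR comparisons, with 1 point per gene and a line at the median. The medians at 4 weeks in BALB/c (red) are 0.86, 0.79 and -0.78 for interferon-stimulated, macrophage and brown and beige adipocyte genes.

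Over all probes, 974 differed between the changes at 4 and 2 weeks, 3453 between 4 and 8 weeks and 1733 between the strains at 4 weeks, before adjustment. After adjustment no difference had a p under 0.05 in limma. Of the 696 lncRNA probes that rose, 61.1% had changes above 0 at 2 weeks, 17.7% at 8 weeks and 54.3% in SPRET/EiJ. For the 1179 coding probes that rose these shares were 63.1%, 26.8% and 55.7%. Over all probes of both classes together they were 50.6%, 31.0% and 54.5%, and shares for each whole class are not given. These comparisons share no array with the one at 4 weeks, but slides 1 and 2 hold arrays of more than 1 of them.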

How the data were processed

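Per the labels, each array holds RNA of 1 mouse mammary gland, extracted from frozen tissue and labelled with Cy3. The authors deposited the intensity of each spot from Agilent Feature Extraction 10.10.1.1 (build mm9), background-subtracted and detrended within the array, with other values such as raw spot and background intensities and flags for outliers, saturation and signal above background. They also deposited log2 values normalized to the 75th percentile, with a median of 0 per probe over 24 arrays. On the 6 arrays 99.8% of the latter lay within 0.01 of the values computed here after the same centring.

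From the deposited intensities, log2 values minus each array's 75th percentile over 59305 non-control spots were computed, 954 outlier spots were left out, none was saturated, and spots of a probe were averaged. The 3 LDIR and 3 sham arrays were tested with limma 3.58.1 (R 4.3.3), with no covariate, at the methods' thresholds (unadjusted p of 0.05, 1.5-fold) and with Benjamini-Hochberg adjustment over all probes. Differences between LDIR changes were tested on all 24 arrays. The script was tested on simulated data. Nothing in the labels says more of the mice within a group, so p-values measure the spread between these samples, and the number of arrays limits the precision.

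A gene was read by its probe with the highest mean over 24 arrays. Named genes were the 12 coding genes and 6 lncRNAs with the largest change each way (called, every array of the higher group above background, groups not overlapping, over 1.5-fold also against sham C, lncRNAs on chromosome 18 left out), and up to 4 called members of each of 41 gene lists, or where none was called 1 or 2 with the highest level. For each named lncRNA the nearest coding gene within 100 kb and the opposite strand were read. Of 690 listed symbols 681 were matched. The members, lists and rule were chosen with earlier results of these data known. Alternatives changed the background correction (normexp, offset 50), normalization, probe filter, outlier spots, test (the methods' t-test), blocks, arrays in the fit and single replicates. Python 3.11.15, pandas 2.3.3 and matplotlib 3.10.9 were used for tables and figures. Promoter sequences came from RefSeq's GRCm38.p6 annotation. Results of a few listed genes are not reported here.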

Additional observations from a re-analysis of the deposited data

How the results depend on the processing

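Counts of called probes depended on the background correction, the slide and sham C. The 926 lncRNA and 1738 coding RNA probes became 58 and 555 after normexp, 464 and 898 with the methods' t-test, 259 and 411 on all 24 arrays with slide as a block, and, for coding RNA, 1067 on all 24 arrays. After adjustment, the methods' t-test kept 1 coding probe, and the 24-array fit with slide 1 lncRNA and 4 coding probes. Leaving out 1 array gave 653 to 2457 lncRNA and 1444 to 3625 coding RNA probes, the highest without sham C. Interferon-stimulated genes that rose (15) became 9 on all 24 arrays and 7 with slide added, and 11 to 17 when 1 array was left out. Macrophage genes that rose (10) became 6 with the t-test, 1 with slide as a fixed block, 0 on 24 arrays with slide, and 4 to 12. Brown and beige adipocyte genes that fell (7) became 3 with the t-test, 2 on 24 arrays, 0 with slide as a fixed block or on 24 arrays with slide, and 3 to 11. With slide as a random block the 3 lists had 15, 10 and 7, and 840 lncRNA (620 higher, 220 lower) and 1618 coding RNA probes were called. The correlation within slides estimated for this block was only 0.037, so that fit allowed little for slide. The differences from 2 weeks, 8 weeks and SPRET/EiJ (974, 3453 and 1733 probes) became 613, 952 and 890 with slide as a block, of which 2, 8 and 3 passed adjustment, and 311, 722 and 631 after normexp. The cause was not tested. The medians of the 3 lists kept their sign after normexp (0.65, 0.70 and -0.66) and after quantile normalization (0.86, 0.84 and -0.81).

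Same-lettered LDIR and sham arrays had correlated deviations of 0.0379, 0.0557 and 0.0282, so the letters were not taken as pairs. With a replicate block 1084 lncRNA and 1913 coding RNA probes were called, with 13 interferon-stimulated, 9 macrophage and 4 brown and beige adipocyte genes. Of 91 called named genes, 52 lost the call with slide as a fixed block, 53 after normexp and 1 on the authors' log2 values, and none changed sign. Probes above background on no array set the limit of what can be read from signal: 251 lncRNA and 304 coding RNA calls lay there. The methods' t-test also called none of the T lymphocyte, MHC class II, p53 target and proliferation genes.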
